A study of Mus musculus with 10 samples.

Results

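The transcripts described here encode the AP-1 factors of the Fos family (Fos, Fosb, Fosl1 and Fosl2), of the Jun family (Jun, Junb and Jund) and the related factor Atf3. The members were all probe sets to which the platform annotation gives 1 of these 8 symbols alone. This rule found 12 of the 45037 probe sets tested, standing for 8 of 18193 genes, and no filter on low values was applied, so all 12 were tested. Fosl1, Fosl2, Jun and Jund had 2 probe sets each. Hearts of male SV129 mice 32 weeks old were measured on 10 arrays, and all groups share that sex, strain and age. KO AngII hearts (2 arrays, KO AngII 3 and 4) lacked the atypical protein kinase C isoform PKCz (genotype PKCZ -/-) and came from mice infused under the skin by minipump for 14 days with angiotensin II (AngII), a daily dose of 432 µg per kg. KO PBS hearts (3 arrays, 2 to 4) came from PKCZ -/- mice given PBS in place of AngII. WT AngII hearts (3 arrays, 2 to 4) and WT PBS hearts (2 arrays, 3 and 5) came from wild-type littermates under the same treatments. The source label of the PBS mice calls them non-treated, while titles and protocols name PBS. The labels used here do not say how the PKCz allele was made. Nor do they say that arrays of a group came from separate animals, and if they did not, the spread behind each p-value may be technical.

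AP-1 is a dimer of basic leucine zipper proteins that binds short DNA sites and switches genes of growth, stress and matrix turnover. Fos proteins need a Jun partner to bind DNA, while Jun proteins can also pair with themselves, and Atf3 pairs with Jun proteins or with itself, often as a repressor. Fos, Fosb, Jun, Junb and Atf3 are immediate early genes, whose transcripts appear shortly after a stimulus and decay quickly, whereas Jund is made steadily in most tissues. In cultured heart cells AngII acts through its AT1 receptor and the G protein alpha-q, and Fos is among the transcripts it is known to induce.

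Prkcz, which encodes PKCz, read 5.70 to 5.87 log2 on the 5 KO arrays and 6.23 to 6.45 on the 5 WT arrays, a difference of −0.53 averaged over treatments (two-sided exact permutation within treatments, p = 0.01, where 100 arrangements give no smaller p). This is the brightest of 3 Prkcz probe sets, and the labels do not place it inside or outside the deletion. The 6 markers of heart muscle cells averaged 13.77 to 13.91 log2 on every array. Of the markers of other cells, the 5 fibroblast markers averaged 12.27 on WT AngII 2 and 9.87 to 10.97 on the other 9 arrays. Poly-A control RNAs of bacterial genes, a spike-in that passes through labelling with the heart RNA, averaged 6.90 to 7.08 log2 on KO AngII 3, KO AngII 4 and KO PBS 4 and 12.86 to 13.33 on the other 7 arrays (mean of 24 probe sets). These low spike-in arrays take in both KO AngII arrays and no WT array, so that this technical difference and the genotype cannot be told apart under AngII except through KO PBS 4. The signal at the 3′ end of a transcript minus that at its 5′ end was also lowest on these arrays. For beta-actin it was 0.74 to 0.83 log2, against 0.92 to 1.70 on the other 7. For Gapdh it was 0.02 to 0.12, against 0.18 to 0.59. No pair of arrays was identical, with Pearson r from 0.9734 to 0.9951 over all probe sets.

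Promoter sequence is shown for Atf3, Fos, Fosl2 and Jun, the genes with the smallest unadjusted p in the comparison of KO PBS with WT PBS hearts described further on. Each run covers the 250 bases before the transcription start in the RefSeq promoter table of build GRCm38.p6, printed 5′ to 3′ on the strand of the gene, and capitals mark the core of the cyclic AMP response element (CRE), TGACG or its complement CGTCA. The windows lie at chr1:191183334-191183583 on the minus strand for Atf3, at chr12:85473640-85473889 on the plus strand for Fos, at chr5:32136222-32136471 on the plus strand for Fosl2 and at chr4:95052223-95052472 on the minus strand for Jun.
Atf3: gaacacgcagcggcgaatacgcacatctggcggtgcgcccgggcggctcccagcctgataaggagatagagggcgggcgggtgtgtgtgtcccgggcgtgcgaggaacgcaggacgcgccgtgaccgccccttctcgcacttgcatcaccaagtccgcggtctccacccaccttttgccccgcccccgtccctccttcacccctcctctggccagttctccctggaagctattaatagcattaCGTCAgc
Fos: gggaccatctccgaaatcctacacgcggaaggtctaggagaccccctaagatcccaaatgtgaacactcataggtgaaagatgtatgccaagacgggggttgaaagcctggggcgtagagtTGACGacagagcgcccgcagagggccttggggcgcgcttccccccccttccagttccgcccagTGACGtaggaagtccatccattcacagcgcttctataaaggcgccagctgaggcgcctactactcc
Fosl2: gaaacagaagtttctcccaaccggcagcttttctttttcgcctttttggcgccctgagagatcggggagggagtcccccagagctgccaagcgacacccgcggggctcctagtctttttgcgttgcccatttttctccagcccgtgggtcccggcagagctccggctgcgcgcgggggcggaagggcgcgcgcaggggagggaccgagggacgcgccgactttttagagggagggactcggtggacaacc
Jun: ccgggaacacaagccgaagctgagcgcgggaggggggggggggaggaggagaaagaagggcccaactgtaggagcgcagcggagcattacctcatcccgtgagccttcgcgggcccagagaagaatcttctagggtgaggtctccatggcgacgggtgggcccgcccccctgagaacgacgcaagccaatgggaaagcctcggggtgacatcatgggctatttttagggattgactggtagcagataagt
The Atf3 window holds the core 7 bases before the start, and the Fos window holds it 129 and 66 bases before the start. The windows of Fosl2 and Jun hold none. Of the 7 members in the table, which are all but Fosl1, 4 windows hold the core (Atf3, Fos, Fosb and Junb), against 17.8% of all 32851 promoters in this window. This shorter motif was added after the sequences were seen, and it lies inside the full CRE (TGACGTCA). The full CRE, the AP-1 site (TGANTCA) and the serum response CArG box, each searched on both strands, were found in 0 of the 7 windows and in 1.55%, 6.75% and 1.47% of all promoters. CCAAT was found for Jun and Junb (33.8% of all promoters) and the GC box (GGGCGG) for Atf3, Fos, Fosb, Fosl2 and Jun (32.7%). These matches describe letters in the windows and not bound sites. Bases farther upstream, and variants that differ from these patterns, were not searched, so a count of 0 does not mean that a promoter lacks such sites.

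Among the Fos family, the group means of Fos and of the brighter Fosl2 probe set were highest in WT PBS hearts, while Fosl1 hardly varied. Fos, the founding member, read 6.96 and 7.72 in KO AngII hearts, 8.46, 8.03 and 6.64 in KO PBS hearts, 8.17, 6.83 and 8.16 in WT AngII hearts and 8.91 and 10.78 in WT PBS hearts (log2, probe set 1423100_at). Both WT PBS arrays lay above all the other 8, and WT PBS 5 stood 1.87 above WT PBS 3. Fos averaged 7.34 ± 0.54, 7.71 ± 0.95, 7.72 ± 0.77 and 9.85 ± 1.32 in these 4 groups in the same order (SD, n = 2, 3, 3 and 2), and the 3 lower groups overlapped one another. In bulk hearts such as these, fewer cells of a type and less RNA per cell cannot be told apart. Fosl2, which encodes Fra-2, read 8.08 and 8.07 in KO AngII hearts, 9.15, 8.41 and 7.50 in KO PBS hearts, 8.86, 7.88 and 7.92 in WT AngII hearts and 9.53 and 9.49 in WT PBS hearts on its brighter probe set (1437247_at). Here the 2 WT PBS arrays were nearly equal and above all others, and the 3 KO PBS arrays spread over 1.65 log2 units. The other Fosl2 probe set (1422931_at) read 7.02 to 7.58 over the 10 arrays. WT PBS was the highest group mean on it too, but neighbouring groups in the order of means overlapped, so the 2 probe sets differ in the size of the differences.

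Fosb, a close relative of Fos, read 4.19 and 4.30 in KO AngII hearts, 4.58, 4.65 and 4.34 in KO PBS hearts, 4.42, 4.45 and 4.54 in WT AngII hearts and 4.45 and 4.83 in WT PBS hearts (probe set 1422134_at). Its mean level lay at percentile 14 of all probe sets, and only the KO AngII arrays were separate from the next group in the order of means. Fosl1, which encodes Fra-1, read 6.55 and 6.49 in KO AngII hearts, 6.49, 6.30 and 6.25 in KO PBS hearts, 6.36, 6.53 and 6.40 in WT AngII hearts and 6.34 and 6.64 in WT PBS hearts (probe set 1417487_at). All neighbouring groups overlapped, and the second Fosl1 probe set (1417488_at) spanned only 5.49 to 5.79.

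Of the Jun family, Jun was highest on WT PBS 5, Junb on WT PBS 3 and Jund on WT AngII 4. Jun, the main partner of Fos, read 9.87 and 9.54 in KO AngII hearts, 9.95, 9.46 and 8.63 in KO PBS hearts, 9.39, 9.17 and 9.72 in WT AngII hearts and 9.70 and 10.58 in WT PBS hearts on its brighter probe set (1417409_at). On the second Jun probe set (1448694_at) the values were 9.11 and 9.24 in KO AngII hearts, 9.47, 9.18 and 8.46 in KO PBS hearts, 8.96, 8.96 and 9.07 in WT AngII hearts and 9.35 and 10.16 in WT PBS hearts. WT PBS 5 was highest and KO PBS 4 lowest on each, and on the second both WT PBS arrays lay above all AngII arrays of either genotype but not above KO PBS 2. Junb, which can oppose Jun at some promoters, read 6.67 and 6.29 in KO AngII hearts, 7.53, 7.64 and 6.75 in KO PBS hearts, 8.22, 6.72 and 7.55 in WT AngII hearts and 8.61 and 7.76 in WT PBS hearts (probe set 1415899_at). Junb averaged 6.48 ± 0.27 in KO AngII hearts, the lowest group mean, and 8.19 ± 0.60 in WT PBS hearts, the highest (SD, n = 2 each), and the KO AngII arrays lay below those of all 3 other groups. Jund, the constitutive Jun protein, read 10.64 and 10.39 in KO AngII hearts, 10.70, 10.41 and 10.02 in KO PBS hearts, 10.83, 10.24 and 11.42 in WT AngII hearts and 10.59 and 10.80 in WT PBS hearts (probe set 1449117_at). The groups overlapped throughout, and WT AngII hearts alone spanned 1.19 log2 units. The dimmer Jund probe set (1440265_at) stayed between 5.58 and 6.10.

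Atf3, a stress-induced factor, showed the widest range of the 12 probe sets. It read 7.55 and 7.42 in KO AngII hearts, 8.77, 7.28 and 7.04 in KO PBS hearts, 8.08, 7.56 and 8.40 in WT AngII hearts and 9.32 and 11.90 in WT PBS hearts (probe set 1449363_at). WT PBS 5 stood 2.58 above WT PBS 3, which itself was above the other 8 arrays, so the WT PBS mean of 10.61 ± 1.83 (SD, n = 2) rests on 2 unlike arrays. The KO AngII, KO PBS and WT AngII means were 7.48 ± 0.10, 7.70 ± 0.94 and 8.01 ± 0.42 (SD, n = 2, 3 and 3). KO AngII arrays lay below all WT AngII arrays by a narrow margin (7.55 against 7.56 at the nearest), and KO PBS overlapped with both AngII groups. The spread within groups was wide for several members: the pooled SD of Atf3 was 0.954 and that of Fos 0.917, at percentiles 99.8 of all probe sets, while that of the brighter Fosl1 probe set was 0.126, at percentile 28.4.

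**Figure D1:**
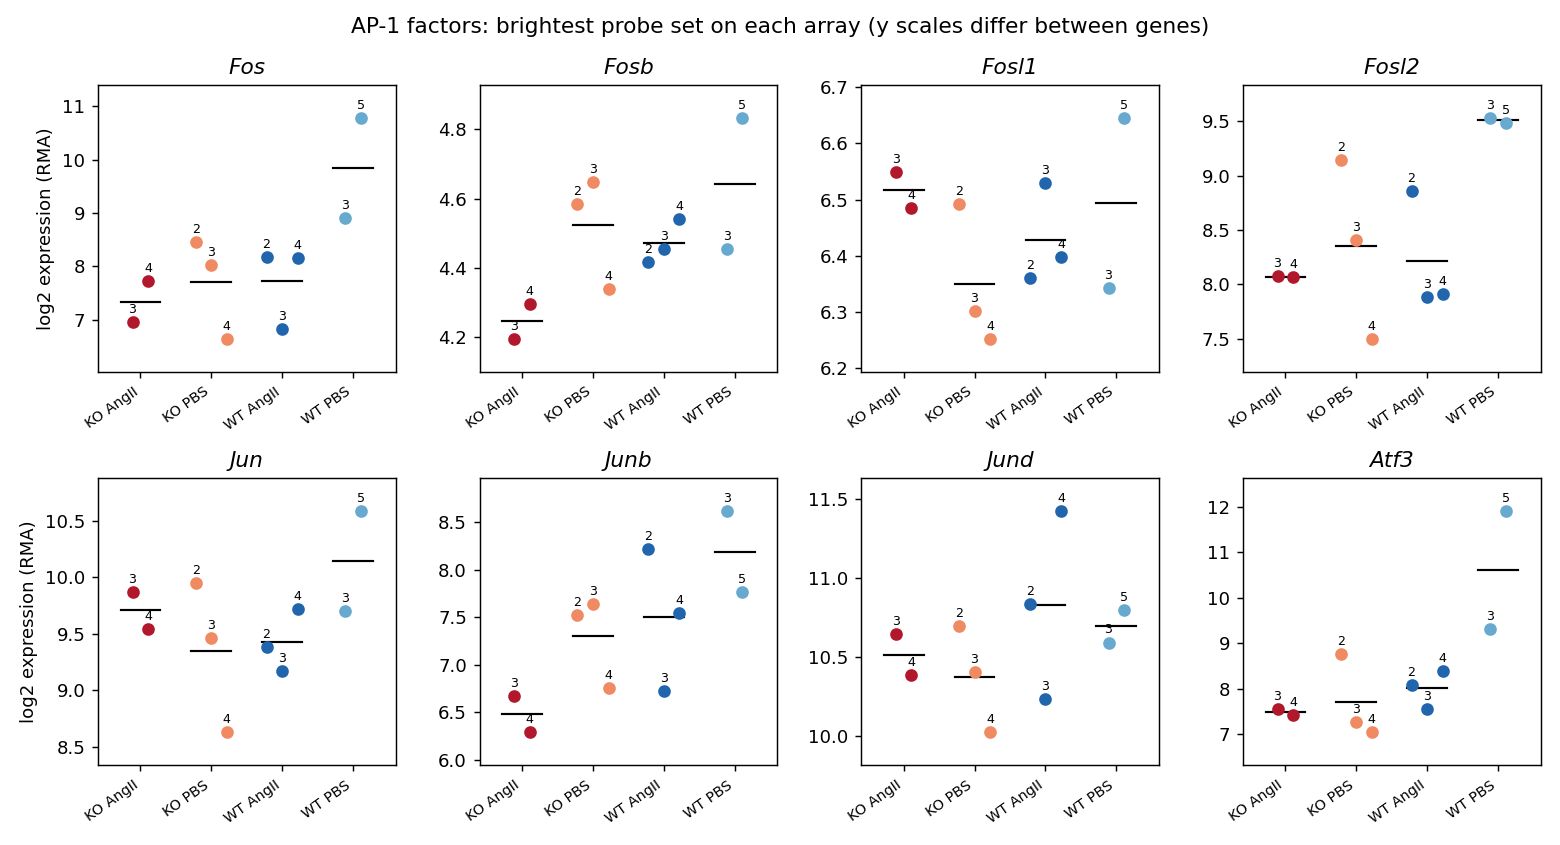
Log2 expression (RMA) of the brightest probe set of each of the 8 genes, with a point for each array, numbered as in its title, and a bar for the group mean (KO AngII n = 2, KO PBS n = 3, WT AngII n = 3, WT PBS n = 2; the y scale differs between genes). Fos, Fosl2 and Atf3 are higher on both WT PBS arrays than on the other 8, and WT PBS 5 is the highest array for Atf3 at 11.90.

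The first comparison asked how loss of PKCz went with AP-1 transcripts in hearts without AngII. All 12 probe sets were lower on average in KO PBS than in WT PBS hearts, with a median difference of −0.52 against 0.01 over all probe sets, but none passed limma's test (0 of 12 at an adjusted p under 0.05, against 0.0133% of all probe sets called, 6 in number). An unadjusted p under 0.05 was reached by 6 of 12, all lower in KO PBS, against 3.58% of all probe sets lower, 2.72% higher and 6.29% in all. These were Atf3, Fos, the brighter Fosl2 probe set, both Jun probe sets and Junb. Atf3 differed by −2.91 ± 0.64 (SE) log2, 7.53-fold lower in KO PBS, with a 95% interval of −4.31 to −1.52 (unadjusted p = 0.000686, limma adjusted p = 0.405). Fos differed by −2.14 ± 0.61 (SE), 4.39-fold lower (unadjusted p = 0.00472, limma adjusted p = 0.624). Every KO PBS array lay below every WT PBS array for 4 of 12 probe sets (Fos, the brighter Fosl2, Junb and Atf3), against 10.8% of all probe sets. The brighter Fosl2 probe set differed by −1.16 ± 0.40 (SE) (unadjusted p = 0.0132, limma adjusted p = 0.703). For Jun the difference was −0.79 ± 0.35 (SE) and −0.71 ± 0.28 (SE) on its 2 probe sets, and for Junb −0.88 ± 0.40 (SE), with adjusted p from 0.745 to 0.791. The 95% intervals of the others were −0.40 to 0.16 for Fosb, −0.46 to 0.17 for the brighter Fosl1 probe set and −0.95 to 0.31 for the brighter Jund probe set.

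A measure of ribosomal RNA was also highest on the WT PBS arrays, and markers of macrophages and red cells separated them from the KO PBS arrays. The 18S ribosomal RNA signal, a mean of 3 control probe sets, was 9.39 on WT PBS 3 and 8.18 on WT PBS 5, the 2 highest values, against 6.65 to 8.07 on the other 8 arrays. For beta-actin, the signal at the 3′ end minus that at the 5′ end was highest on WT PBS 5, at 1.70. WT PBS 3, at 1.17, lay within the range of the others (0.74 to 1.38). Macrophage markers averaged at most 8.14 on the KO PBS arrays and 8.25 and 8.60 on the WT PBS arrays, without overlap. They were not particular to WT PBS, at 8.37 to 9.30 on the WT AngII arrays and 8.18 and 8.30 on the KO AngII arrays. The 2 measured red cell markers averaged 7.01 to 7.55 on the KO PBS arrays and 6.95 and 6.99 on the WT PBS arrays. The part of these measures in the AP-1 differences was not tested. WT PBS 5 decided the size of several differences: without it the KO PBS minus WT PBS difference was −1.62 for Atf3, −1.20 for Fos and −0.35 for Jun. Without WT PBS 3 it was −4.20 for Atf3, which then passed limma's test (adjusted p = 0.0386, the lone WT PBS array being assumed to vary like the other groups). Over the 10 fits that leave out 1 array each, the adjusted p of Atf3 ranged from 0.0386 to 1. Fosl2 stood at −1.18 without WT PBS 5 and −1.14 without WT PBS 3, but moved to −0.73 without KO PBS 4, its lowest array. Junb moved the other way, to −0.46 without WT PBS 3 and −1.31 without WT PBS 5. With the spike-in level as a block, which under PBS leaves out KO PBS 4, Atf3 differed by −2.59, Fos by −1.60, Fosl2 by −0.73, Jun by −0.43 and Junb by −0.61, and 3 of 12 probe sets had an unadjusted p under 0.05, against 4.88% of all in that fit. That count ranged from 3 to 6 when 1 array was left out, where 3.41% to 9.78% of all probe sets reached it. Of the probe sets that did not reach it with all arrays, Fosb, both of Fosl1, the second of Fosl2 and the dimmer of Jund lay above 0 in at least 1 of those fits.

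**Figure D2:**
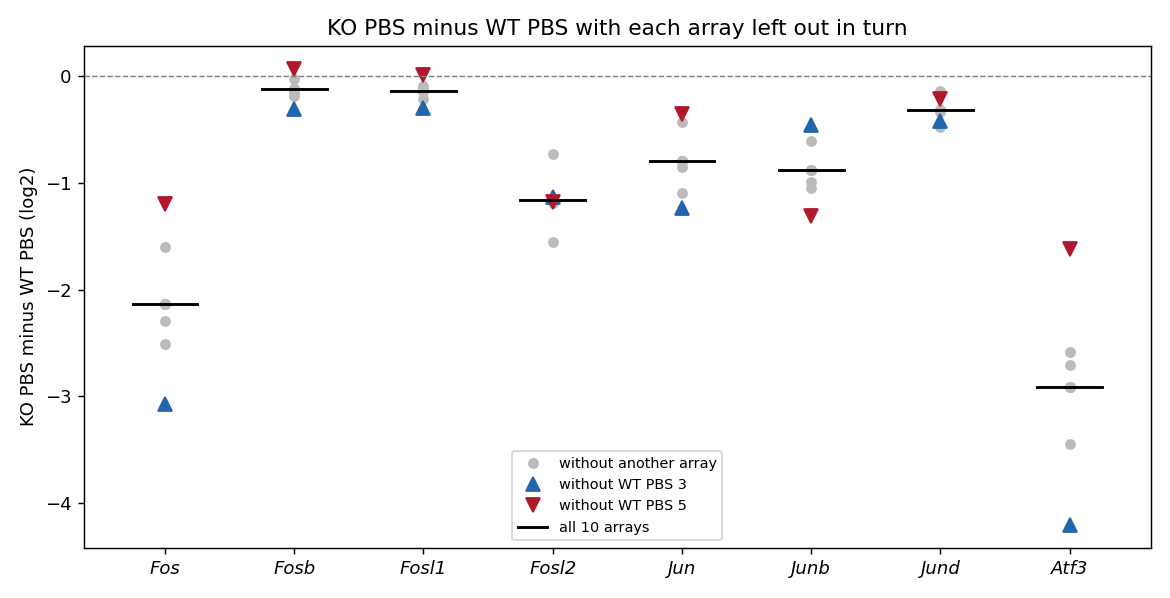
KO PBS minus WT PBS difference (log2) of the brightest probe set of each gene in the fit of all 10 arrays (bar) and in the fits without 1 array (points; triangles mark the fits without a WT PBS array). Atf3 runs between −4.20 and −1.62 and Fos between −3.07 and −1.20, the ends being set by the 2 WT PBS arrays.

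Under AngII, Junb was the member with the largest difference between genotypes. Of the 12 probe sets 6 lay below 0 and 6 above in KO AngII minus WT AngII, with a median of −0.03, and none passed (0 of 12, against 0.0111% of all probe sets). Only Junb had an unadjusted p under 0.05 among the 12, against 3.28% of all probe sets lower, 3.22% higher and 6.51% in all. Junb differed by −1.01 ± 0.40 (SE), 2.02-fold lower in KO AngII (unadjusted p = 0.0269, limma adjusted p = 0.734). Without WT AngII 2 the Junb difference was −0.65 and without WT AngII 3 it was −1.40, and none of the 12 had an unadjusted p under 0.05 without KO AngII 4, WT AngII 2 or WT AngII 4 (against 2.97%, 5.53% and 6.35% of all probe sets in those fits). Atf3 differed by −0.53 ± 0.64 (SE) and Fos by −0.38 ± 0.61 (SE), with 95% intervals of −1.92 to 0.87 and −1.73 to 0.96 that take in 0. Jun stood on the other side, at 0.28 ± 0.35 (SE) and 0.18 ± 0.28 (SE). KO AngII arrays lay wholly below WT AngII arrays for 3 probe sets (Fosb, Junb and Atf3, against 11.2% of all) and wholly above for 2 (the second Jun and the dimmer Jund, against 16% of all). Both KO AngII arrays are low spike-in arrays, and the values with the spike-in level as a block, which rest on KO PBS 4, were −0.19 for Junb, 0.46 for Atf3, 1.23 for Fos, 1.13 for the brighter Fosl2 and 1.36 for Jun (adjusted p = 1 for each). Of these, Atf3, Fos and Fosl2 changed sign. In that fit 3 of 12 probe sets had an unadjusted p under 0.05, against 1.65% of all. These were the brighter Fosl2 and both Jun probe sets, all higher in KO AngII, and not Atf3 or Fos. Macrophage markers averaged 8.18 and 8.30 on the KO AngII arrays and 8.37 to 9.30 on the WT AngII arrays, and atrial muscle markers 6.15 and 6.18 on the KO AngII arrays and 6.37 to 6.59 on the WT AngII arrays. Their part in the differences was not tested.

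The response to AngII was taken in each genotype. In KO hearts 5 probe sets lay below 0 and 7 above, the median was 0.06, and 0 of 12 passed by limma or by an unadjusted p under 0.05, against 0% and 4.57% of all probe sets (2.4% lower and 2.17% higher). Junb had the largest difference, −0.82 ± 0.40 (SE) (unadjusted p = 0.063, limma adjusted p = 0.892), with both KO AngII arrays below the 3 KO PBS arrays. That held for 2 of 12 probe sets, Junb and Fosb, against 10.8% of all, and the reverse for 2, the second Fosl1 and the dimmer Jund, against 13.7% of all. Fos differed by −0.37 ± 0.61 (SE), Atf3 by −0.21 ± 0.64 (SE) and Jun by 0.36 ± 0.35 (SE). The spike-in block sets the KO AngII arrays against KO PBS 4 alone, the lowest of the 10 arrays for Fos, Jun and Atf3. With it Junb stood at −0.27, Fos at 0.70, Atf3 at 0.44 and Jun at 1.08, so that Fos and Atf3 changed sign. Fibroblast markers averaged 10.77 and 10.97 on the KO AngII arrays and at most 10.24 on the KO PBS arrays, and their part in these values was not tested. Macrophage markers were also higher on both KO AngII arrays (8.18 and 8.30) than on the KO PBS arrays (at most 8.14).

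In WT hearts, all of them high spike-in arrays, 10 of 12 probe sets were lower on average under AngII than under PBS, with a median of −0.46 against 0.01 over all probe sets. None passed limma's test (0 of 12, against 0% of all), and 4 had an unadjusted p under 0.05, all lower, against 3.52% of all probe sets lower, 1.71% higher and 5.23% in all. Atf3 differed by −2.60 ± 0.64 (SE), 6.06-fold lower in WT AngII (unadjusted p = 0.00161, limma adjusted p = 0.877). Fos differed by −2.12 ± 0.61 (SE), 4.36-fold lower (unadjusted p = 0.00487, limma adjusted p = 0.93). The brighter Fosl2 probe set differed by −1.29 ± 0.40 (SE) and the second Jun probe set by −0.76 ± 0.28 (SE). For these 4 probe sets every WT AngII array lay below every WT PBS array, against 11.3% of all probe sets. Junb differed by −0.69 ± 0.40 (SE), and Jund stood at 0.14 ± 0.29 (SE). Without WT PBS 5 the differences were −1.31 for Atf3, −1.19 for Fos, −1.31 for Fosl2, −0.36 for the second Jun probe set and −1.12 for Junb. Without WT PBS 3 they were −3.89, −3.06, −1.27, −1.16 and −0.26 in the same order. The 18S signal was 6.65 to 7.70 on the WT AngII arrays and 9.39 and 8.18 on the WT PBS arrays. Heart muscle markers averaged at most 13.86 on the WT AngII arrays and at least 13.88 on the WT PBS arrays. For skeletal muscle markers the averages were at least 6.35 and at most 6.25 in the same order. The part of these measures in the differences was not tested. WT AngII 2, the array with the highest fibroblast markers, also had the highest macrophage markers (9.30, against at most 8.60 on the other 9 arrays). Without it Atf3 differed by −2.63, Fos by −2.35, Fosl2 by −1.61 and Junb by −1.05, and without WT AngII 3 Junb differed by −0.30. This comparison and that of KO PBS with WT PBS hearts share the 2 WT PBS arrays, and are therefore not independent.

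**Figure D3:**
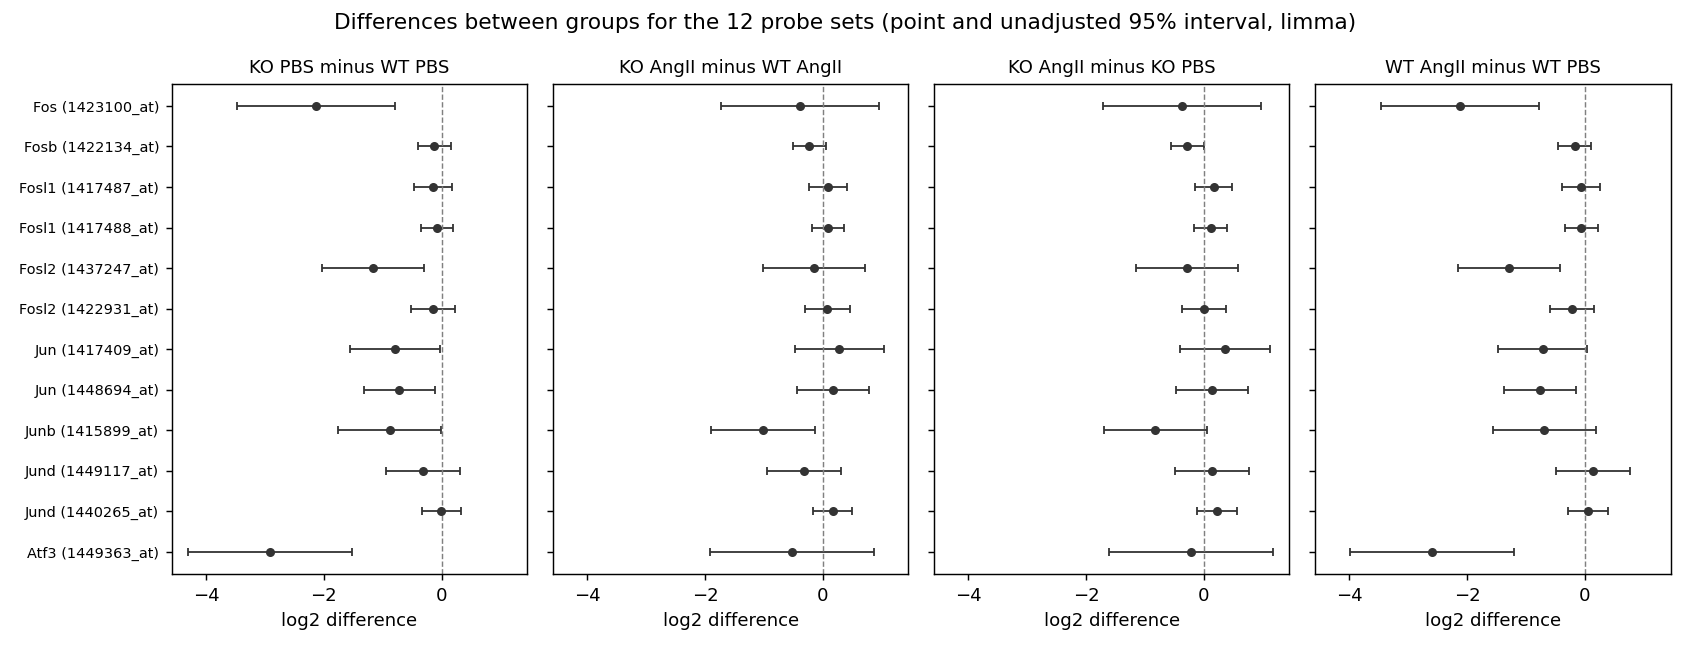
Log2 difference of each of the 12 probe sets in 4 comparisons, with the unadjusted 95% interval from limma. Atf3 and Fos lie farthest below 0 in KO PBS minus WT PBS (−2.91 and −2.14) and in WT AngII minus WT PBS (−2.60 and −2.12), which share the WT PBS arrays, and their intervals take in 0 in the other 2 comparisons.

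The difference between the AngII responses, KO minus WT, was tested as an interaction. It was above 0 for 10 of 12 probe sets, and none passed (0 of 12, adjusted p = 1 for each, against 0% of all probe sets). An unadjusted p under 0.05 was reached by 3 (Atf3 and both Jun probe sets), all above 0, against 1.15% of all probe sets above 0, 0.482% below and 1.64% in all. The interaction was 2.39 ± 0.90 (SE) for Atf3, 1.07 ± 0.49 (SE) and 0.90 ± 0.40 (SE) for Jun and 1.75 ± 0.87 (SE) for Fos. Without WT PBS 5 it was 1.10 for Atf3, 0.82 for Fos and 0.63 for the brighter Jun probe set, and 0 of 12 then had an unadjusted p under 0.05, against 1.82% of all probe sets, as was so without KO AngII 3, against 1.1%. With the spike-in block it was 3.04 for Atf3, 2.83 for Fos and 1.79 for the brighter Jun probe set. In that fit the KO response was taken against KO PBS 4 alone, the lowest of all arrays for these probe sets. Without KO PBS 4 the interaction was 2.06 for Atf3, 1.21 for Fos and 0.72 for the brighter Jun probe set.

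Array by array, the members varied together in part. The mean deviation of the 8 brightest probe sets from their own means over the 10 arrays was 1.18 on WT PBS 5 and 0.51 on WT PBS 3, followed by 0.28 on KO PBS 2, and was lowest on KO PBS 4 at −0.78. Of the 28 pairs of members, 27 had a positive Pearson r over the 10 arrays, and 2 passed by both r and rank after adjustment over the 28 pairs. Fos and Atf3 had r = 0.93 (permutation p = 0.00032, adjusted 0.00784) and rho = 0.87 (permutation p = 0.00234, adjusted 0.0328). Fos and Fosl2 had r = 0.84 (permutation p = 0.00056, adjusted 0.00784) and rho = 0.90 (permutation p = 0.00081, adjusted 0.0227). Leaving out WT PBS 5 and KO PBS 4, the 2 arrays farthest from the median of Fos, r was 0.77 with Atf3 and 0.80 with Fosl2. The pair of Fos and Jun moved further, with r = 0.81 (permutation p = 0.00866, adjusted 0.0404) and rho = 0.67 (permutation p = 0.0387, adjusted 0.126) over 10 arrays and r = 0.36 over 8, and so rests on those arrays. These arrays share groups and spike-in level, so r is not free of either. The permutations moved arrays freely between groups and spike-in levels. Their p-values therefore do not separate variation shared by 2 members from differences between groups. No share of positive or passing pairs among other genes is set beside these counts.

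**Figure D4:**
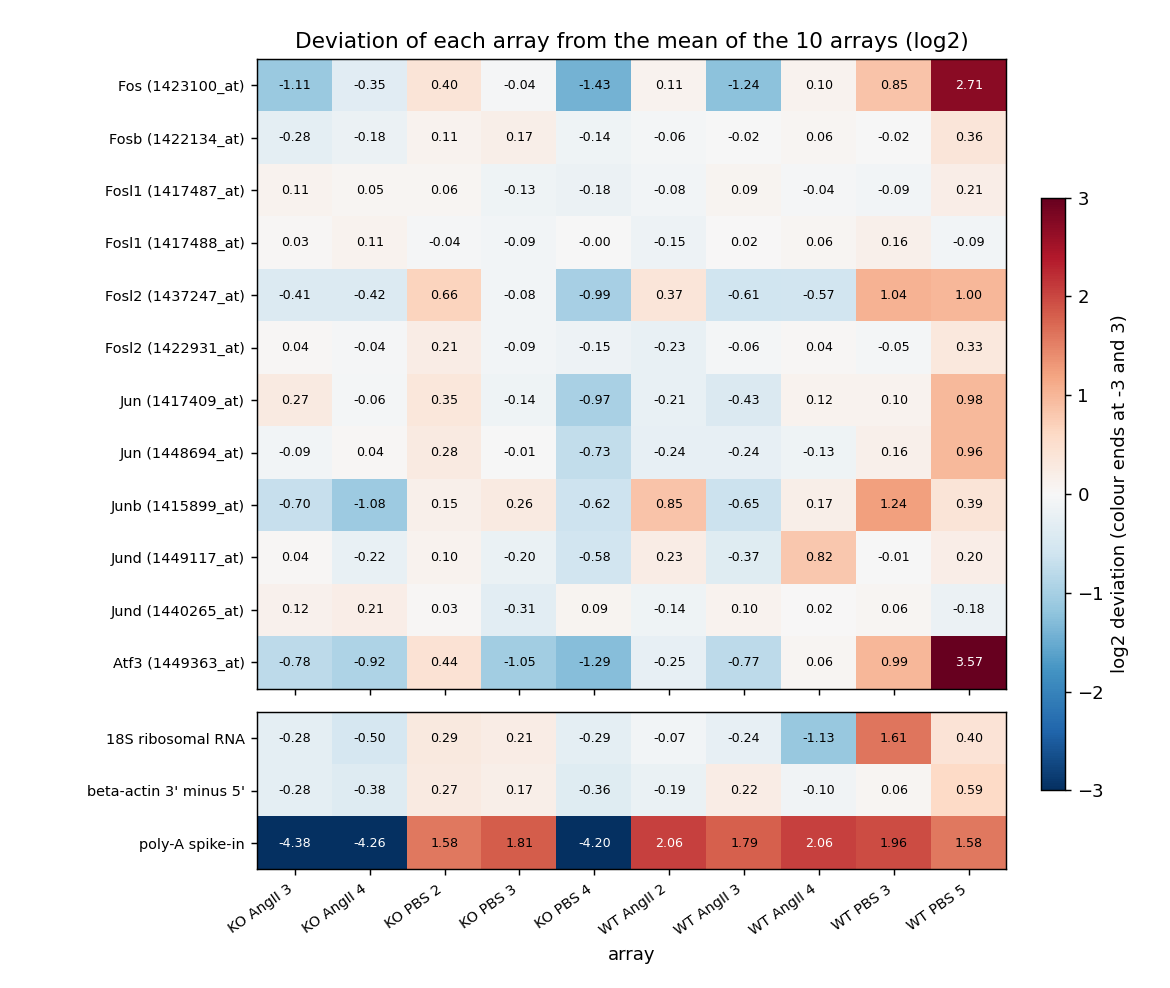
Deviation of each array (columns) from the mean of the 10 arrays (log2) for the 12 probe sets and, below, for 18S ribosomal RNA, the beta-actin 3′ minus 5′ signal and the poly-A spike-in level. Atf3 and Fos are highest on WT PBS 5 and lowest on KO PBS 4, and the spike-in level separates KO AngII 3, KO AngII 4 and KO PBS 4 from the other 7 arrays.

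The genes whose brightest probe set was most like the average of the 8 members over the 10 arrays were Btg2, an antiproliferative immediate early gene (r = 0.98), the deubiquitinase gene Otud1 (0.98), Maff, a small Maf factor (0.97), the nuclear pore gene Pom121 (0.97) and Tent5a (0.97). Over the 8 arrays other than WT PBS their r was 0.90 to 0.96. For Fos alone the 5 nearest were Otud1 (0.96), Mcm3 of the replicative helicase (0.95), the splicing kinase gene Prpf4b (0.95), the nuclear pore gene Nup98 (0.95) and Btaf1 (0.94). Without the WT PBS arrays the r of these 5 with Fos was 0.85 to 0.92. All these r describe likeness across these arrays, and those over 10 arrays were the highest among all genes by choice.

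Other genes of the pathway were described by lists. The other immediate early genes had 21 of 22 members below 0 in KO PBS minus WT PBS, with a median of −0.75 against −0.003 over all genes. None of them passed over all probe sets, and 15 had an unadjusted p under 0.05, all lower, against 3.44% of all genes. Egr2, a zinc-finger factor, led them at −2.64 ± 0.49 (SE). In WT AngII minus WT PBS 19 of these 22 lay below 0 (median −0.59), and 12 had an unadjusted p under 0.05, against 3.77% of all genes. The 13 measured partners of AP-1 proteins had a median of −0.18 in KO PBS minus WT PBS. Of them 2 had an unadjusted p under 0.05, against 3.44% of all genes lower and 2.31% higher. These were Maff (−0.60 ± 0.22, SE) and Atf4 (−0.45 ± 0.18, SE). The 21 measured kinases and factors upstream of AP-1 had a median of −0.17 with 3 at that threshold, all lower, against the same shares of all genes. These were Map3k1, Srf, which binds the CArG box, and Mapk9, a JNK kinase of Jun. A median below 0 in this upstream list was not particular to KO PBS minus WT PBS. Its medians were −0.16 in KO AngII minus KO PBS, −0.19 in WT AngII minus WT PBS and −0.17 in KO AngII minus WT AngII. The 17 measured AP-1 target genes had a median of −0.20 in KO PBS minus WT PBS. Of them 1 was lower and 1 higher at that threshold, against 3.44% of all genes lower and 2.31% higher. The lower was Hbegf, a growth factor shed from the cell surface, which read 8.75 and 8.52 in KO AngII hearts, 9.20, 8.77 and 8.24 in KO PBS hearts, 9.63, 8.51 and 9.38 in WT AngII hearts and 10.14 and 10.43 in WT PBS hearts. It differed by −1.55 ± 0.32 (SE) between KO PBS and WT PBS (unadjusted p = 0.000446, limma adjusted p = 0.389). The higher was the protease gene Plau (0.30 ± 0.10, SE). With an adjusted p under 0.05 stood 0 genes of these 4 lists in any of the 5 comparisons by limma.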

How the data were processed

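Heart RNA was hybridised to Affymetrix arrays of 1 colour. The authors deposited log2 values per probe set. The submitters' processing notes name RMA, without a version, as the tool behind them. No read depth applies, and the number of arrays limits precision. Of 45101 probe sets, 64 controls were left out. GEO's platform annotation gave 1 symbol for 34945 probe sets, several for 932 and none for 9160, and symbols were updated through RefSeq (GRCm38.p6, names only). A gene is represented by its probe set of highest mean. Differences were fitted with limma 3.58.1 (R 4.3.3) on 4 group means over 10 arrays, eBayes with trend, two-sided, with Benjamini-Hochberg adjustment over 45037 probe sets in each of 5 comparisons. Intervals use 11.7 degrees of freedom, the median over probe sets. The fit was also run on simulated data with 200 changed probe sets. There it recovered 69% of 2-fold and 96% of 4-fold changes, with 11 false calls. The simulated noise was independent between arrays, so the run says nothing on the spike-in split or on unlike arrays within a group.

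The members and lists were chosen with earlier results of these data known. Named are all members, the 5 genes most correlated with their average or with Fos, and up to 3 genes of a list by smallest p. Alternatives were other scalings, no trend, a filter on dim probe sets, blocks for title number and spike-in level, fewer arrays and averaging the probe sets of a gene.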

Additional observations from a re-analysis of the deposited data

How the results depend on the processing

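Replicates of 2 or 3 arrays limit every value here, and no member was called in any of the 5 comparisons with all arrays, under any other scaling, without a trend, with the filter on dim probe sets, with either block or with only the arrays compared. Leaving out 1 array in turn gave 0 called members except under PBS, where KO against WT ranged from 0 to 1, Atf3 being called without WT PBS 3. The count over all probe sets then ranged from 4 to 22 for genotype under PBS (22 without WT AngII 2), 4 to 8 for genotype under AngII, 0 to 3 for AngII in KO, 0 to 3 for AngII in WT and 0 to 2 for the interaction. On the brightest probe set of each member, directions that turned when 1 array was left out had these ranges of log2 difference: for AngII in KO, −0.91 to 0.0064 for Fos, −0.70 to 0.12 for Fosl2, −0.54 to 0.32 for Atf3, −5e-04 to 0.66 for Jun and −0.0371 to 0.30 for Jund; for the interaction, −0.29 to 0.30 for Jund, −0.56 to 0.29 for Junb and −0.29 to 0.0845 for Fosb; for genotype under AngII, −0.31 to 0.17 for Fosl2; for AngII in WT, −0.16 to 0.43 for Jund, −0.36 to 0.0163 for Fosb and −0.22 to 0.0862 for Fosl1; for genotype under PBS, −0.31 to 0.0684 for Fosb and −0.30 to 0.0065 for Fosl1. Prkcz ranged from −0.56 to −0.50.

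Same-numbered arrays of different groups are not stated to be paired, and their deviations correlated at r from −0.36 to 0.10. WT PBS 5 is the only array with title number 5. A block for title number therefore gives WT PBS 5 no weight in the differences and leaves WT PBS 3 alone in its group. With the title number as a replicate block the called probe sets numbered 1 for AngII in WT, 3 for genotype under PBS and 3 for genotype under AngII, with no member among them, and the members that turned stood at 0.0802 (Fosl2) and 0.0722 (Atf3) for AngII in KO, 0.0346 (Fosb) and 0.11 (Fosl1) for AngII in WT, 0.69 (Junb) for the interaction, 0.0867 (Fosb) and 0.0288 (Fosl1) under PBS and 0.21 (Fosl2) under AngII. With the spike-in block 2 probe sets were called under AngII, and the members that turned stood at 0.70 (Fos), 0.57 (Fosl2) and 0.44 (Atf3) for AngII in KO, 0.0805 (Fosb) and 0.42 (Junb) for the interaction, and 1.23 (Fos), 0.0523 (Fosb), 1.13 (Fosl2), 0.21 (Jund) and 0.46 (Atf3) for KO against WT under AngII. The interaction of Jund, 0.0036, became −0.0033 with equal array medians and −0.0464 with repeated quantile normalisation. With only bright probe sets 3 were called for KO against WT under AngII, and with only the KO arrays 2 for AngII in KO. The cause of these changes was not tested.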
